A study of Mus musculus with 10 samples.

Results

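Reads were counted for 24454 genes in brown adipose tissue (BAT) of mice. The circadian clock genes described here are 10 of these, from the core feedback loops. They were chosen by name and not by their values, though earlier results of these data were known. They are *Arntl* (also written Bmal1) and *Clock*, the activators; *Per1*, *Per2*, *Per3* and *Cry1*, repressors of the activators; *Nr1d1* and *Nr1d2*, which encode the REV-ERB nuclear receptors; and *Dbp* and *Tef*, which encode PAR bZIP transcription factors. Each was found in the count tables by its Entrez gene identifier, and all 10 were among the 13568 genes tested. RNA-Seq libraries, taken here as 1 per mouse, were made from BAT of 5 control and 5 Stat5Adipoq mice in the basal state. The study asked what the loss of the transcription factor STAT5 from adipocytes does to gene expression in this tissue. According to the methods all mice were 2-month-old males on a C57BL/6N background, fed ad libitum under 12 h of light and 12 h of dark. Stat5Adipoq mice lack *Stat5* in cells in which the Adipoq-Cre transgene is active. Their controls were littermates with floxed *Stat5* and no Adipoq-Cre in the methods, and are given as wild type in the sample labels. Adipoq-Cre acts in adipocytes, white ones as well as brown, and whole BAT also holds vessels, nerves and immune cells that keep *Stat5*. The time of day at which each mouse was sampled is not given in the sources used here, so its part in the values was not tested.

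The clock is a set of interlocked loops that run in nearly every cell. The proteins of *Arntl* and *Clock* pair and bind E-box sequences, through which they activate *Per*, *Cry*, *Nr1d* and PAR bZIP genes. PER and CRY proteins return to the nucleus and block the pair, REV-ERB receptors repress *Arntl* through RORE sequences, and DBP and TEF activate genes through D-box sequences. As a result mRNAs of these genes rise and fall over the day in peripheral tissues, with *Arntl* high when *Dbp* and *Nr1d1* are low. In BAT, REV-ERBα is known as a repressor of the thermogenic gene *Ucp1*.

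RefSeq windows from 250 bases before to 50 bases after a start site (GRCm38.p6) were at hand for 9 of the 10 genes, all but *Per2*. These 14 windows were searched on both strands for the letters these factors are known to bind. Shown are those of *Arntl*, *Dbp* and *Tef*, which form pairs with an unadjusted p below 0.05 across libraries, none of them past the adjusted threshold, of *Cry1*, which had the lowest p-value between the genotypes, and of *Per3*, a carrier of the sites that DBP and TEF bind. Capitals mark the matches. They are the RORE TAGGTCA and its variant GTAGGTTA in *Arntl* (chr7:113207261-113207560, plus strand), the STAT5 consensus TTCNNNGAA in *Dbp* (chr7:45704997-45705296, plus strand), the E-box CACGTG in *Tef* (chr15:81811164-81811463, plus strand), the E-box and the variant CACGTT, read here on the other strand, in *Cry1* (chr10:85185005-85185304, minus strand), and the D-box TTATGTAA in *Per3* (chr4:151044616-151044915, minus strand).
Arntl: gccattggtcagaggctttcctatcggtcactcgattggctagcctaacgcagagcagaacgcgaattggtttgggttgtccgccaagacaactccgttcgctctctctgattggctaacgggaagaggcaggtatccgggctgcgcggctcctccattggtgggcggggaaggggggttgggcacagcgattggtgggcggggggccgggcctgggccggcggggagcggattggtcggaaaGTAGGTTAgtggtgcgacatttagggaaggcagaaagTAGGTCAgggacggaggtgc
Dbp: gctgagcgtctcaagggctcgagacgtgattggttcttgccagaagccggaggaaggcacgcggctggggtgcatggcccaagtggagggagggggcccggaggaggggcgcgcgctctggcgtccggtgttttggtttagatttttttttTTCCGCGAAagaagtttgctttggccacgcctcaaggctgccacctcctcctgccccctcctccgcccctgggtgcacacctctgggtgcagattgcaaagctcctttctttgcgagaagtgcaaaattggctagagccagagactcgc
Tef: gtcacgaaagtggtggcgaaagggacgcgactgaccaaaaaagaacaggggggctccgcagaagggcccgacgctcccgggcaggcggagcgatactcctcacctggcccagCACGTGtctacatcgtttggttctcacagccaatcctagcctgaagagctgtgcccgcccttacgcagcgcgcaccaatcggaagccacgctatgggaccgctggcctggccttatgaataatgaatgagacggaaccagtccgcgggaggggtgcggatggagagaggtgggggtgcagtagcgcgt
Cry1: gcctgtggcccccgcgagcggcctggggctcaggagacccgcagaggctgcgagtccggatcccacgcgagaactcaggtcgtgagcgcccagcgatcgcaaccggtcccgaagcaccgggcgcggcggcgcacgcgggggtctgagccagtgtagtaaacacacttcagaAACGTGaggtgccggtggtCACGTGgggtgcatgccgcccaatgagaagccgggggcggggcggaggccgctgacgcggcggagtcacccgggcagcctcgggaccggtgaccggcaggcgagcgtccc
Per3: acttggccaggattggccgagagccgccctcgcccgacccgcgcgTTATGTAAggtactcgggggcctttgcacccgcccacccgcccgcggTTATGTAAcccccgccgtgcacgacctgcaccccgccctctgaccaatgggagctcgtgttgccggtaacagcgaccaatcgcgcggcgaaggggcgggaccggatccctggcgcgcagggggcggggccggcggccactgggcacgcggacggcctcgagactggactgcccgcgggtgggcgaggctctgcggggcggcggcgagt

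Counted from the start site to the leftmost base of a match, the *Arntl* window held the RORE at 31 and the variant at -7, the *Dbp* window a STAT5 consensus at -99, and the *Per3* window D-boxes at -205 and -158. The *Cry1* window held an E-box at -60 and the variant at -79, and both windows of *Tef* held an E-box, at -127 and -138. *Per1* had an E-box at -166 in 1 window and a STAT5 consensus at -210 in the other, and *Nr1d1* had the E-box variant at -28. These letters are not in the windows of *Clock* and *Nr1d2*. Of 32851 mouse windows of this length 7.15% hold CACGTG, 4.68% CACGTT, 0.938% TTATGTAA, 2.61% TAGGTCA, 0.317% GTAGGTTA and 8.3% TTCNNNGAA. The D-box TTACGTAA (0.119%), the RORE TGGGTCA (3.98%) and the cAMP response element TGACGTCA (1.79%) were searched as well and were in no window of the 9 genes. A match is a stretch of letters, and binding was not measured.

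Counts on genes ranged from 8488129 to 19514904 in the control libraries and from 9401827 to 15686868 in the Stat5Adipoq libraries. *Stat5a* had 110, 130, 92.6, 86.9 and 107 CPM (counts scaled to the size of the library, with edgeR's TMM factors) in control replicates 1 to 5 and 20.7, 15.8, 16.2, 16.6 and 16.1 CPM in Stat5Adipoq replicates 1 to 5, a log2 fold change of -2.62 (edgeR quasi-likelihood test, adjusted p = 2e-07). *Stat5b* had 76.6 to 91.9 CPM in control and 21.0 to 22.9 CPM in Stat5Adipoq libraries, a log2 fold change of -1.94 (adjusted p = 3.9e-09). The tissue carried its defining marker, with *Ucp1* between 5400 and 13825 CPM in every library. The library of control replicate 3 stood apart, since all 11 skeletal muscle markers were highest there and their summed level was 4878 CPM. It was 405 CPM in control replicate 5, 6.01 to 73.3 CPM in the other controls and 2.95 to 54.8 CPM in the Stat5Adipoq libraries. All 11 markers had fold changes below 0, and edgeR called 0 of them (2.71% of all tested genes). At an unadjusted edgeR p below 0.05 there were 11, against 15.2% of all tested genes. DESeq2 called 5 of them (4.86% of all tested genes) and gave no p-value for the others. The exact two-sided permutation test of the genotypes gave p from 0.1 (*Ckm*) to 0.34 (*Myh2*). Since all 11 were highest in control replicate 3, they are not separate results. *Clock* and *Per2* were also highest in that library. Summed Schwann cell markers ranged from 181 to 596 CPM in control and from 245 to 367 CPM in Stat5Adipoq libraries, and macrophage markers from 156 to 209 and from 132 to 170 CPM. Of the 7 Schwann cell markers edgeR called *S100b* (log2 fold change 1.07, adjusted p = 0.00085), and the other 6 had fold changes below 0, of which DESeq2 called *Pmp22* (edgeR log2 fold change -0.62, DESeq2 adjusted p = 0.038). Lymphocyte markers stayed between 2.04 and 5.26 CPM in all libraries. The part of these other cells in the clock gene values was not tested, and in whole tissue fewer cells of a type and less RNA per cell cannot be told apart.

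None of the 10 clock genes differed between the genotypes at an adjusted p-value below 0.05. The edgeR test called 0 of 10, against 2.71% of all tested genes (368 of 13568), and DESeq2 called 0 of 10, against 4.86%. Limma-voom called 0 of 10 as well. At an unadjusted p below 0.05 edgeR gave 1 of 10 (*Cry1*), against 15.2% of all tested genes. In no clock gene did the libraries of one genotype lie apart from those of the other, beside 4.39% of all tested genes. With only 10 genes, these counts of 0 and 1 are near the shares over all tested genes and do not set the clock genes apart. The log2 fold changes of Stat5Adipoq over control were above 0 in 3 genes and below 0 in 7, with a median of -0.08 beside -0.0028 over all tested genes. Their median absolute size was 0.16, against 0.11 over all tested genes.

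**Figure D1:**
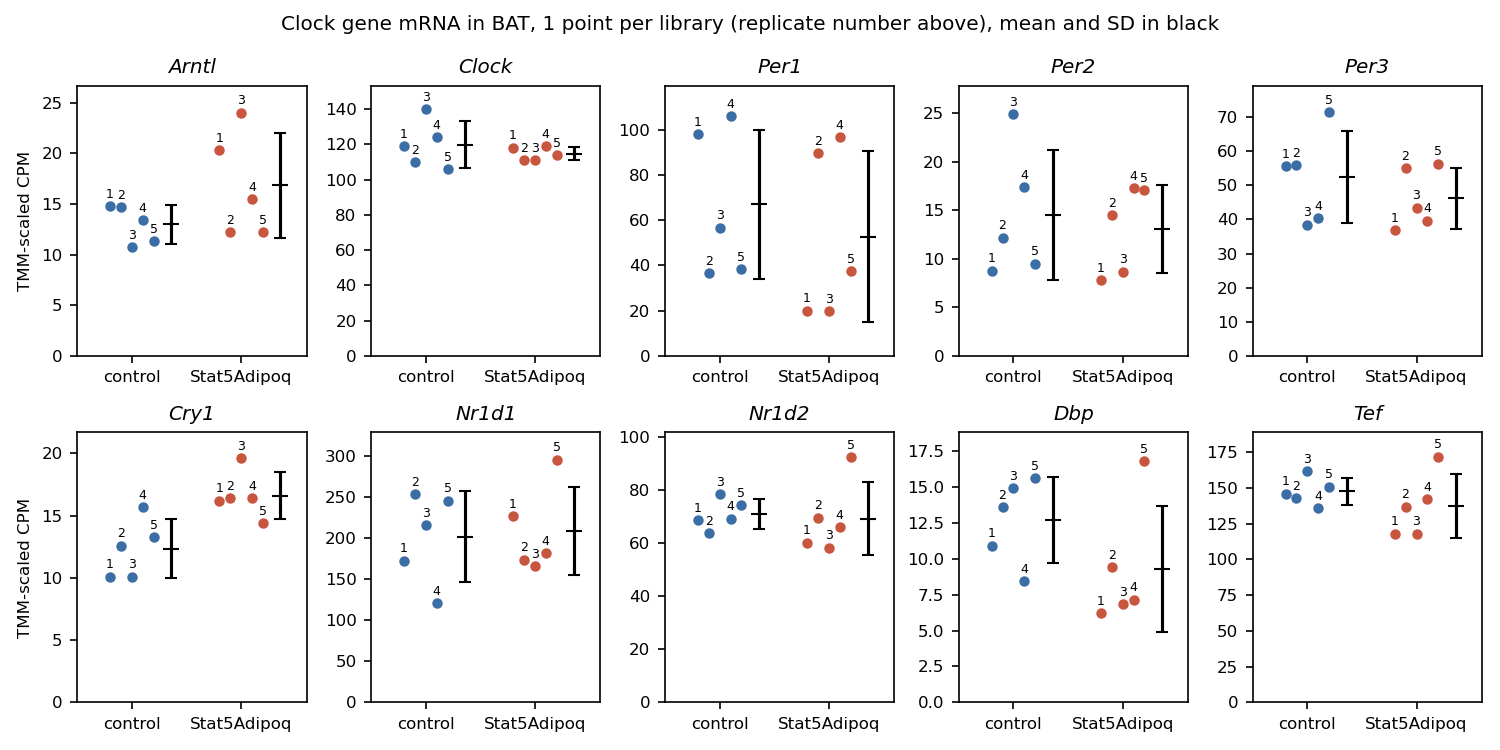
CPM (y axis, linear and starting at 0, a separate scale per gene) of the 10 clock genes in each control (blue) and Stat5Adipoq (red) library, with replicate numbers above the points and the mean and SD of 5 libraries in black. The genotypes overlap in every gene, least in *Cry1*, where the control libraries lie between 10.1 and 15.7 CPM and the Stat5Adipoq libraries between 14.4 and 19.6 CPM.

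*Arntl*, the DNA-binding partner without which the clock stops, was measured at 14.8, 14.7, 10.7, 13.4 and 11.3 CPM in control replicates 1 to 5 and at 20.3, 12.2, 24.0, 15.5 and 12.2 CPM in Stat5Adipoq replicates 1 to 5. Stat5Adipoq replicates 1, 3 and 4 were above every control library, while replicates 2 and 5 lay within the control range. The control libraries averaged 13.0 ± 1.90 CPM and the Stat5Adipoq libraries 16.9 ± 5.18 CPM (SD, n = 5 each), and the log2 fold change was 0.37 (SE 0.19, 95% confidence limits -0.04 and 0.78, edgeR adjusted p = 0.39), or 0.21 without Stat5Adipoq replicate 3. *Clock*, its partner, was steadier. It had 119, 110, 140, 124 and 106 CPM in the control libraries and 118, 111, 111, 119 and 114 CPM in the Stat5Adipoq libraries. The Stat5Adipoq libraries all fell inside the control range, and the log2 fold change was -0.06, with narrow limits of -0.22 and 0.09 (edgeR adjusted p = 0.75). Without the library of control replicate 3 it was -0.0027, and without control replicate 5 it was -0.10.

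Among the repressors, *Per1* had the widest scatter of the 10 genes. This member of the period family, which is also induced acutely by glucocorticoids and by cAMP, had 98.1, 36.6, 56.7, 106 and 38.4 CPM in the control libraries and 20.0, 89.7, 19.9, 96.8 and 37.4 CPM in the Stat5Adipoq libraries. High and low libraries occurred in both genotypes, in control replicates 1 and 4 and in Stat5Adipoq replicates 2 and 4. The means of 67.1 ± 32.8 and 52.8 ± 37.7 CPM (SD, n = 5 each) differed by -0.35 on the log2 scale (confidence limits -1.38 and 0.67, edgeR adjusted p = 0.8), so a change of more than 2-fold in the downward direction lay inside the limits. It was -0.64 and -0.68 without Stat5Adipoq replicates 2 or 4, -0.18 and -0.12 without control replicates 1 or 4, and -0.14 and -0.15 without Stat5Adipoq replicates 1 or 3. *Per2*, the period gene that the clock needs most, had 8.80, 12.2, 24.9, 17.4 and 9.50 CPM in the control and 7.79, 14.5, 8.68, 17.3 and 17.1 CPM in the Stat5Adipoq libraries. Its highest value was that of control replicate 3, the library with muscle markers. Its log2 fold change was -0.15 (confidence limits -0.82 and 0.51, adjusted p = 0.88) and turned to 0.10 without that library. *Per3*, which the clock can run without, had 55.6, 55.8, 38.5, 40.4 and 71.5 CPM in the control and 36.9, 55.0, 43.4, 39.6 and 56.3 CPM in the Stat5Adipoq libraries. The groups overlapped over most of their ranges, and the controls reached higher, with replicate 5. The log2 fold change was -0.18 (confidence limits -0.55 and 0.20, adjusted p = 0.71), or -0.04 without control replicate 5 and -0.10 without Stat5Adipoq replicate 1.

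*Cry1*, which encodes the cryptochrome that holds the activator pair in check late in the cycle, came closest to a difference. It was measured at 10.1, 12.6, 10.1, 15.7 and 13.3 CPM in control replicates 1 to 5 and at 16.2, 16.4, 19.6, 16.4 and 14.4 CPM in Stat5Adipoq replicates 1 to 5. All 5 Stat5Adipoq libraries lay above the control median, and the genotypes overlapped only because control replicate 4 was above Stat5Adipoq replicate 5. The means were 12.4 ± 2.36 and 16.6 ± 1.87 CPM (SD, n = 5 each), the log2 fold change was 0.41 (SE 0.13, confidence limits 0.13 and 0.69), and the unadjusted edgeR p of 0.0084 became 0.14 after adjustment over all tested genes. DESeq2 gave an adjusted p of 0.084, and the exact two-sided permutation test over all groupings of the 10 libraries gave p = 0.016. The adjusted p ranged from 0.059, without control replicate 4, to 0.31 over the alternatives, while the fold change stayed above 0 in all of them. Control replicate 4 was also the deepest library, at 19514904 counts, and had the highest summed levels of Schwann cell (596 CPM), macrophage (209 CPM) and fibroblast (1960 CPM) markers. Their part in its *Cry1* value was not tested.

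The REV-ERB genes did not separate by genotype either. *Nr1d1*, for REV-ERBα, had 173, 254, 216, 121 and 246 CPM in the control libraries and 227, 174, 166, 182 and 296 CPM in the Stat5Adipoq libraries. Control replicate 4 was lowest and Stat5Adipoq replicate 5 highest. The means of 202 ± 55.2 and 209 ± 53.9 CPM (SD, n = 5 each) were nearly equal, and their log2 fold change was 0.05 (confidence limits -0.39 and 0.49, edgeR adjusted p = 0.95). Exons of *Thra*, a thyroid hormone receptor gene on the opposite strand, overlap 8.55% of the exon bases of *Nr1d1*, and whether counting used the strand is not given in the sources used here. *Thra* itself had 129 to 160 CPM in control and 169 to 189 CPM in Stat5Adipoq libraries, a log2 fold change of 0.23 (edgeR adjusted p = 0.1, DESeq2 adjusted p = 0.033). *Nr1d2*, for REV-ERBβ, had 68.9, 63.8, 78.6, 69.4 and 74.5 CPM in the control and 60.3, 69.7, 58.4, 66.1 and 92.5 CPM in the Stat5Adipoq libraries. The Stat5Adipoq libraries reached both lower and higher than the controls, and the log2 fold change was -0.03 (confidence limits -0.28 and 0.22, adjusted p = 0.94). Of its transcript, 6% of 50-base words occur in other genes, so a small share of its reads is uncertain.

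*Dbp*, a direct target of the activator pair and one of the most strongly cycling mRNAs known, had the most negative fold change of the 10. It had 10.9, 13.6, 14.9, 8.44 and 15.6 CPM in the control libraries and 6.20, 9.42, 6.83, 7.16 and 16.8 CPM in the Stat5Adipoq libraries. Stat5Adipoq replicate 5 was above every control library, and the other 4 were below control replicates 1, 2, 3 and 5. The log2 fold change was -0.43 (SE 0.27, confidence limits -1.01 and 0.15, edgeR adjusted p = 0.49, exact permutation p = 0.13). Without Stat5Adipoq replicate 5 it was -0.76, with an adjusted p of 0.094. *Sphk2* on the opposite strand overlaps 18% of the exon bases of *Dbp*, and its own log2 fold change was -0.05 (adjusted p = 0.79). *Tef*, the related factor, had 146, 143, 162, 136 and 151 CPM in the control and 118, 137, 118, 142 and 172 CPM in the Stat5Adipoq libraries. Its pattern was that of *Dbp* in a smaller range, with Stat5Adipoq replicate 5 highest and replicates 1 and 3 lowest, and its log2 fold change was -0.10 (confidence limits -0.32 and 0.11, adjusted p = 0.69). Without Stat5Adipoq replicate 5 this was -0.20, and without replicates 1 or 3 it was -0.05 and -0.06.

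**Figure D2:**
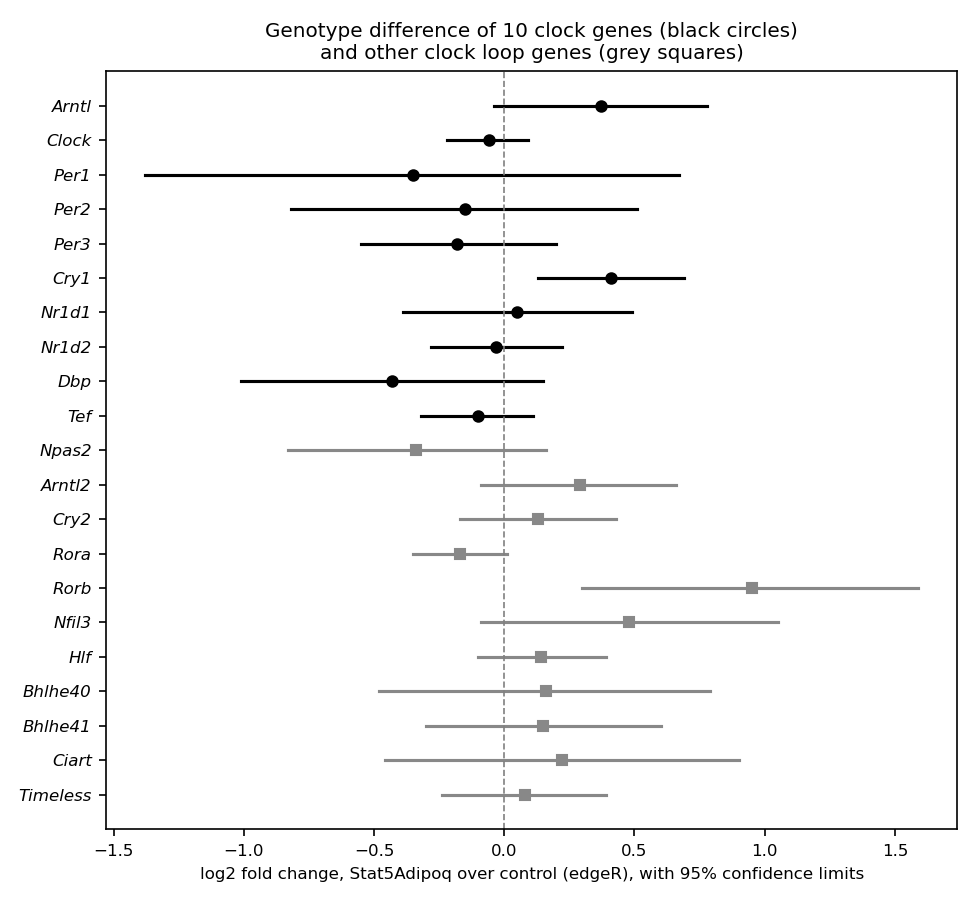
Log2 fold change of Stat5Adipoq over control (x axis) with 95% confidence limits from edgeR for the 10 clock genes (black circles) and other genes of the clock loops (grey squares). Limits that leave out 0 are seen for *Cry1* (0.13 to 0.69) and *Rorb* (0.30 to 1.59), and neither passed the adjusted threshold.

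Between libraries of 1 genotype the clock genes were spread widely beside other genes. It was measured as the SD of log2 CPM around the genotype means and set beside genes whose mean counts were within 1.5 times. *Per1* had an SD of 0.94, above 99.6% of 2200 such genes, and *Per2* one of 0.58, above 98.1%. The SDs of *Nr1d1* (0.40), *Dbp* (0.48), *Per3* (0.33) and *Arntl* (0.34) were above 96.6%, 96.5%, 96.1% and 92.6% of like genes. *Nr1d2* (0.20), *Tef* (0.17), *Cry1* (0.22) and *Clock* (0.12) were above 87.2%, 83.0%, 75.0% and 59.3%. All 10 genes were thus above the median of genes of like counts, 6 of them above 90% of those genes, and 8 were above 0.18, the median SD of all tested genes. Counting error alone was smaller, since the SD was at least 3 times that from counting alone in 9 of the 10 genes; for *Per1* counting alone gives 0.05 and for *Dbp* 0.13. From the lowest to the highest library the level changed 5.30-fold for *Per1*, 3.19-fold for *Per2*, 2.70-fold for *Dbp*, 2.43-fold for *Nr1d1* and 2.24-fold for *Arntl*, but only 1.32-fold for *Clock*. The SD was larger among controls in 5 genes and larger among Stat5Adipoq mice in 5, so neither genotype was the more variable by this count. Larger among Stat5Adipoq mice were *Arntl* (0.43 against 0.21 among controls), *Per1* (1.11 against 0.72) and *Nr1d2* (0.26 against 0.12). So were *Dbp* (0.57 against 0.36) and *Tef* (0.22 against 0.09). Larger among controls were *Clock* (0.16 against 0.05 among Stat5Adipoq mice), *Cry1* (0.27 against 0.16) and *Per2* (0.62 against 0.54). The same held for *Per3* (0.37 against 0.28) and *Nr1d1* (0.44 against 0.35). The difference in spread between the genotypes was not tested.

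**Figure D3:**
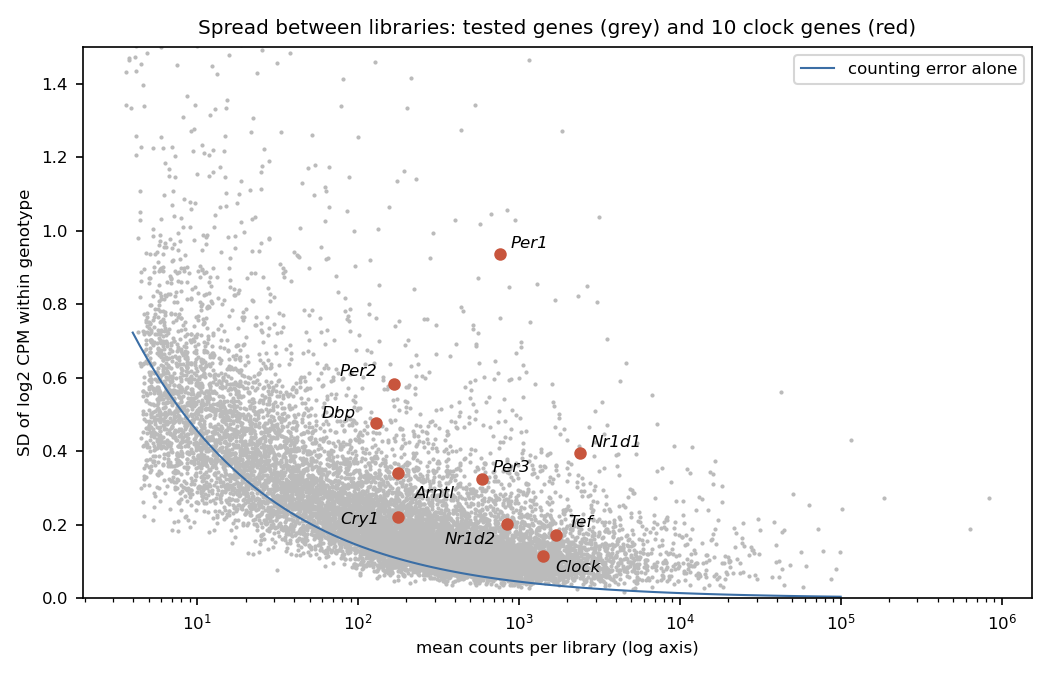
SD of log2 CPM within genotype (y axis) against the mean counts per library (x axis, log scale) for tested genes (grey) and the 10 clock genes (red), with the SD that counting error alone gives (blue line). All 10 clock genes lie above the line, *Per1* highest at 0.94, and 104 of the tested genes are above the plotted range of 1.5.

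The libraries in which the clock genes were high or low were partly shared. In Stat5Adipoq replicate 5, *Nr1d1*, *Nr1d2*, *Dbp* and *Tef* were 0.54, 0.43, 0.94 and 0.34 above the mean of their genotype on the log2 scale, and *Arntl* was 0.41 below it. In Stat5Adipoq replicate 3 the order was turned round, since *Arntl* was 0.56 above its mean and *Nr1d2*, *Dbp* and *Tef* were 0.23, 0.33 and 0.20 below theirs. The log2 ratio of *Dbp* to *Arntl* was -0.44, -0.11, 0.47, -0.66 and 0.46 in control replicates 1 to 5 and -1.68, -0.37, -1.79, -1.10 and 0.45 in Stat5Adipoq replicates 1 to 5. It was highest in control replicates 3 and 5 and Stat5Adipoq replicate 5, so high ratios occurred in both genotypes. The ratios of Stat5Adipoq replicates 1, 3 and 4 lay below those of every control library. The difference of the ratio between the genotypes was not tested. Stat5Adipoq replicate 5 also had the highest summed endothelial markers (993 CPM, against 751 to 950 CPM in control libraries), and their part in these values was not tested.

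**Figure D4:**
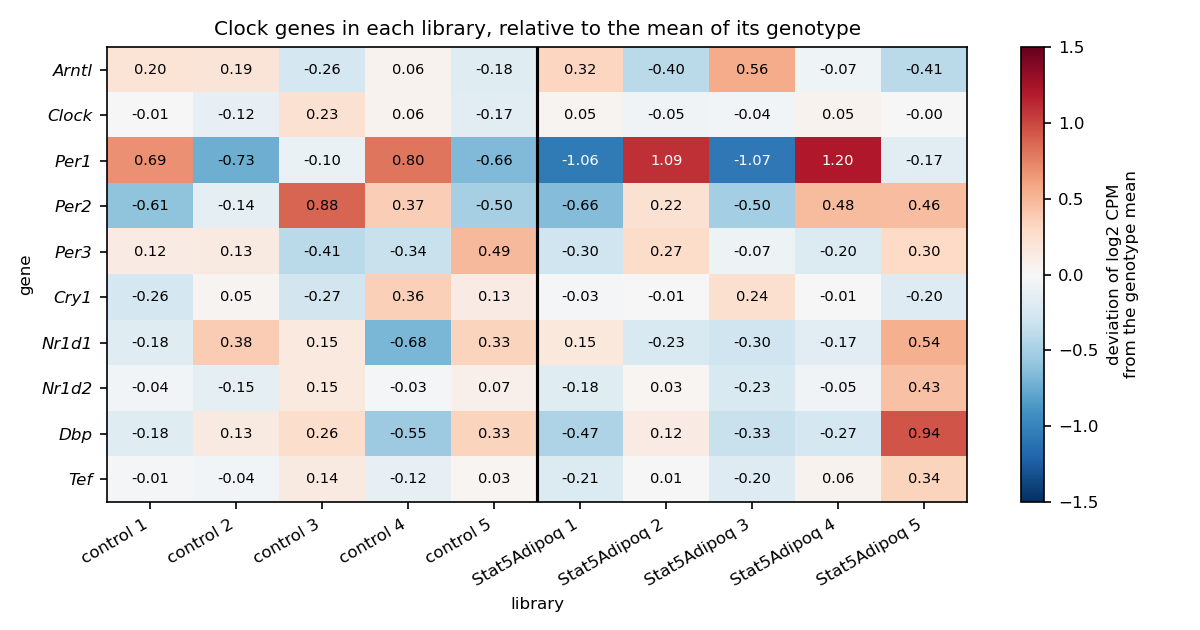
Deviation of log2 CPM from the mean of the genotype (colour and printed value, red above and blue below) for the 10 clock genes (rows) in 5 control and 5 Stat5Adipoq libraries (columns). *Arntl* is opposite in sign to both *Dbp* and *Tef* in 8 of the 10 libraries, 4 of each genotype.

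Correlations of these deviations were computed for the 45 pairs of the 10 genes over 10 libraries, and tested by permuting libraries within each genotype (exact, two-sided, 14400 permutations). No pair passed after Benjamini-Hochberg adjustment over the 45, whether by Pearson's r (lowest adjusted p = 0.08) or by Spearman's rho (lowest adjusted p = 0.084), and 10 pairs had an unadjusted p below 0.05 by Pearson's r. *Nr1d2* and *Tef* had r = 0.93 (exact permutation p = 0.0032, adjusted 0.08; rho = 0.82, p = 0.012, adjusted 0.13), and *Dbp* and *Tef* had r = 0.88 (exact permutation p = 0.0035, adjusted 0.08; rho = 0.78, p = 0.009, adjusted 0.13). *Arntl* and *Nr1d2*, a gene and its own repressor, had r = -0.83 (exact permutation p = 0.0069, adjusted 0.1; rho = -0.90, p = 0.0019, adjusted 0.084). Without the 2 libraries farthest from the median of the gene named first, r was 0.79, 0.72 and -0.82 for these pairs, and without control replicate 3 it was 0.93, 0.87 and -0.81. The relations among *Nr1d2*, *Dbp* and *Tef* leaned on Stat5Adipoq replicate 5, without which r was 0.82 for *Nr1d2* and *Tef*, 0.68 for *Dbp* and *Tef* and 0.55 for *Nr1d2* and *Dbp* (0.84 with it). That of *Arntl* and *Nr1d2* did not, with r = -0.92 without it.

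**Figure D5:**
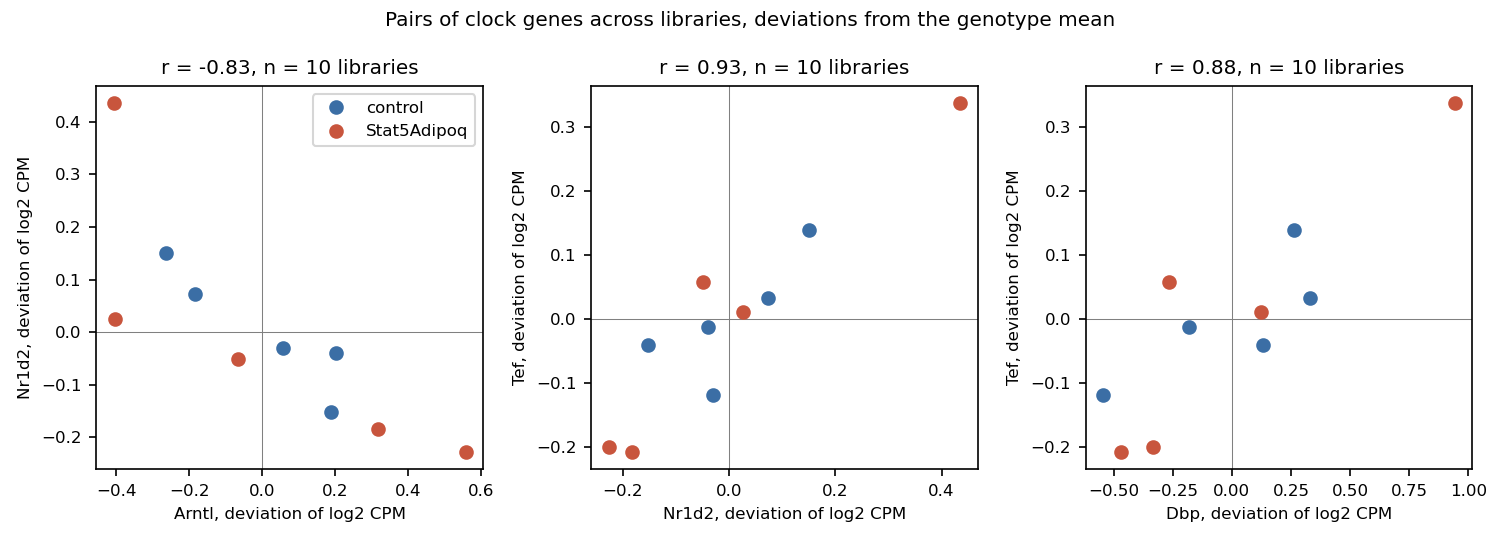
Deviations of log2 CPM from the genotype mean for *Nr1d2* against *Arntl*, *Tef* against *Nr1d2* and *Tef* against *Dbp*, with 1 point per library (blue control, red Stat5Adipoq) and Pearson's r of -0.83, 0.93 and 0.88 above the panels. The point at the far right of both panels for *Tef* is Stat5Adipoq replicate 5.

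The other pairs with an unadjusted p below 0.05 mostly involved the same genes. *Nr1d2* and *Dbp* had r = 0.84 (exact permutation p = 0.017, adjusted 0.13; rho = 0.71, p = 0.028, adjusted 0.16), and r = 0.60 without the 2 farthest libraries. *Arntl* was negatively related to *Tef* (r = -0.82, exact permutation p = 0.021), to *Dbp* (r = -0.71, p = 0.042) and to *Per2* (r = -0.67, p = 0.043). *Nr1d1* and *Dbp* had r = 0.76 (exact permutation p = 0.017), *Clock* and *Per3* r = -0.81 (p = 0.0092), and *Cry1* and *Tef* r = -0.61 (p = 0.024). Spearman's rho was -0.85, -0.70, -0.72, 0.72, -0.84 and -0.48 for the last 6 pairs in that order (exact permutation p = 0.015, 0.028, 0.042, 0.031, 0.014 and 0.14). Their r without the 2 farthest libraries was -0.72, -0.61, -0.59, 0.51, -0.67 and -0.54, and their adjusted p was between 0.1 and 0.19. Of the 10 pairs, 4 were positive and 6 negative. For *Per1* no r is given, because its libraries fell into 2 separate ranges, 89.7 to 106 CPM and 19.9 to 56.7 CPM. None of its 9 pairs had an unadjusted p below 0.05.

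The 4 libraries high in *Per1* were looked at gene by gene after its values had been seen, so what follows is a description. The same 4 libraries were the highest for *Nr4a1*, an orphan nuclear receptor gene induced by cAMP (364 to 657 CPM, against 9.47 to 229 CPM in the other 6), and for *Atf3*, a stress-induced transcription factor gene (6.92 to 9.57 against 1.26 to 2.76 CPM). They were also the highest for *Jun* (59.9 to 99.0 against 30.2 to 52.7 CPM), for *Errfi1*, an inhibitor of EGF receptor signalling (44.5 to 63.2 against 13.3 to 26.7 CPM), and for the kinase gene *Sgk1* (97.6 to 116 against 28.4 to 93.5 CPM). In all, 3 of 10 immediate-early genes and 2 of 10 glucocorticoid targets on the lists had the same 4 highest libraries as *Per1*. Among genes with at least 100 counts on average this held for 2 of 7 immediate-early genes, 2 of 9 glucocorticoid targets and 86 of all 8822 genes (0.975%). *Fkbp5* and *Zbtb16*, glucocorticoid targets too, did not share them, with 3.84 to 8.39 CPM and 18.7 to 37.9 CPM in these 4 libraries against 3.77 to 28.7 CPM and 13.8 to 165 CPM in the others. Nor did *Per2* or *Per3*, whose highest libraries were control replicates 3 and 5. The immediate-early genes *Egr1*, *Fos*, *Junb* and *Ier2* were highest in control replicate 2 and Stat5Adipoq replicate 3, both low in *Per1*. They had 167, 20.6, 31.7 and 26.6 CPM in control replicate 2 and 110, 36.9, 28.0 and 26.4 CPM in Stat5Adipoq replicate 3.

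In transcript abundance per length the clock genes differed far more from each other than between genotypes. Divided by the summed exon length (GENCODE M21), *Nr1d1* was the most abundant, at 65.7 CPM per kb in control and 67.9 CPM per kb in Stat5Adipoq mice. *Tef* (18.8 and 17.5), *Nr1d2* (13.1 and 12.8), *Per1* (11.9 and 9.37) and *Clock* (8.73 and 8.36 CPM per kb) came next. *Per3* (5.45 and 4.81), *Dbp* (4.24 and 3.10), *Cry1* (3.71 and 4.97), *Per2* (2.49 and 2.23) and *Arntl* (1.73 and 2.24 CPM per kb) were the least abundant. Over all libraries the range of *Nr1d1* (39.5 to 96.1 CPM per kb) did not meet that of *Tef* (15.0 to 21.8), and that of *Clock* (7.75 to 10.2) did not meet that of *Per3* (3.84 to 7.44). All other neighbours in this order overlapped, so the order of *Dbp* and *Cry1*, for example, which changed places between the genotypes, is within the spread.

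Among the other genes of the clock loops none passed the adjusted threshold. Of 12 such genes edgeR, DESeq2 and limma-voom called 0 (2.71% of all tested genes for edgeR and 4.86% for DESeq2), and 1 had an unadjusted edgeR p below 0.05 (15.2%), while 10 fold changes were above 0 and 2 below, with a median of 0.15. The gene was *Rorb*, for a receptor that activates through the RORE. It was barely expressed, at 0.287, 0.454, 0.601, 0.556 and 0.457 CPM in control and 1.17, 0.769, 1.20, 0.771 and 0.719 CPM in Stat5Adipoq libraries. The genotypes did not overlap, as in 4.39% of all tested genes (log2 fold change 0.95, edgeR adjusted p = 0.13). The exact permutation p of 0.0079, the smallest 5 libraries against 5 can give, follows from that separation and adds no support. The gene had only 8.40 counts per library on average. *Rora*, for a related receptor and with more reads, had a log2 fold change of -0.17 (adjusted p = 0.38). *Npas2*, the stand-in for *Clock*, had a log2 fold change of -0.34 (adjusted p = 0.54), or -0.13 without control replicate 4 and -0.19 without Stat5Adipoq replicate 5, and *Arntl2*, the stand-in for *Arntl*, one of 0.29 (adjusted p = 0.48). *Cry2* was at 0.13 (adjusted p = 0.73), the PAR bZIP gene *Hlf* at 0.14 (adjusted p = 0.62) and *Nfil3*, the repressor that competes for the D-box, at 0.48 (adjusted p = 0.43). *Nfil3* was at 0.24 without Stat5Adipoq replicate 4 and at 0.74 without control replicate 4. Leaving out a library moved *Cry2* between 0.03 and 0.23 (lowest without control replicate 4, highest without control replicate 5) and *Hlf* between 0.08 and 0.23 (without control replicates 4 and 2). The repressors *Ciart*, *Bhlhe40* and *Bhlhe41* were at 0.22, 0.16 and 0.15 (adjusted p between 0.8 and 0.86), and *Timeless* was at 0.08. Of the *Ciart* transcript, 15.1% of 50-base words occur in other genes, and *Ciart* had 37.0 counts per library on average. *Gm43909* on the opposite strand overlaps 19% of the exon bases of *Bhlhe41*. *Bhlhe41* moved between 0.02 and 0.27 with a library left out (without Stat5Adipoq replicates 5 and 2).

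Clock protein modifiers and outputs were counted in the same way. Of 11 kinases, ubiquitin ligases and related enzymes that act on clock proteins, the 3 tools called 0, and *Usp2* had an unadjusted edgeR p below 0.05 (log2 fold change -0.43, adjusted p = 0.32). Of 15 output genes the 3 tools called 0, and 3 had an unadjusted p below 0.05. Against 15.2% of all tested genes at an unadjusted p below 0.05, these counts, 1 of 11 and 3 of 15, are near the background. Of all tested genes edgeR called 2.71% and DESeq2 4.86%. The 3 output genes were *Nampt*, for the rate-limiting enzyme of NAD salvage (0.15, adjusted p = 0.22), the nuclear receptor gene *Ppara* (0.27, adjusted p = 0.24) and *Coq10b* (-0.40, adjusted p = 0.33). They were named after their values were seen.

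Genes outside these lists whose deviations were most like those of *Arntl* over the 10 libraries were *Top2b* (r = 0.93), *Plcd1* (0.92), *Nim1k* (0.91), *Ints2* (0.89) and *Ints10* (0.89), among 8719 genes with at least 100 counts on average. Among the most opposite were *Arih2* (-0.91), *Sec31a* (-0.89), *Rfx1* (-0.88) and *Tmem41b* (-0.87). These values were picked as the extremes of so many genes over the same 10 libraries and carry no test. Among all 8821 genes with that many counts, *Nr1d2*, *Tef*, *Dbp* and *Per2* ranked 20, 26, 120 and 172 from the most opposite to *Arntl*, while *Clock* and *Nr1d1*, at r = -0.13 and -0.31, ranked 3479 and 1944.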

How the data were processed

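RNA-Seq was done on BAT of 5 control and 5 Stat5Adipoq mice, taken here as 1 library each. Reads of 50 bases were aligned by the authors to GRCm38 with STAR 2.5.0b and counted over exons with featureCounts 1.5.0-p1. The deposited counts per gene are raw, and whether counting used the strand, and the version of the annotation, are not given in the sources used here. The authors' deposited comparison tables (fold changes, p-values, DESeq2 1.16.1) were used only to pair symbols with Entrez identifiers. Groups and replicate numbers came from the sample titles. Replicates are separate libraries of a genotype, with no animal identifiers given. The p-values set the genotype difference against the spread between these libraries.

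Genes with a size factor normalized row sum above 45 were kept (13568 of 24454). The main comparison of the genotypes used edgeR 4.0.16 (quasi-likelihood F test, TMM scaling, no covariate) and Benjamini-Hochberg adjustment over all tested genes at 0.05. The standard error of a fold change was derived from its F statistic. Exact permutation tests (two-sided) on log2 CPM with a prior count of 2 were run for single genes and allow no p below 0.0079. The authors used DESeq2, here an alternative (1.42.0) beside limma-voom (3.58.1), other scalings and filters, a replicate block and leaving out each library. Depth was 8488129 to 19514904 counts per library, and the confidence limits from edgeR take in the spread between libraries. The lowest chi-square per degree of freedom between libraries of 1 genotype was 5.065, so none was a duplicate. Exon lengths, overlaps and shared words came from GENCODE M21, and positions and promoter windows from RefSeq. Fits and pair tests were tested on simulated data. R 4.3.3, Python 3.11.15, pandas 2.3.3 and matplotlib 3.10.9 were used.

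The 10 genes, the lists and the tests were chosen with earlier results of these data known. Genes named besides the 10 are *Stat5a*, *Stat5b*, loop partners, listed genes that were called or did not overlap, and the 5 genes most like and 5 most opposite to *Arntl*; others were named after their values were seen. A few genes that this rule selects are not reported here.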

Additional observations from a re-analysis of the deposited data

Results flagged for a closer look

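In 44 groups of 5 libraries examined, 4 held a library whose gap to the nearest other was, relative to the range of its group, past Dixon's 95% limit, and chance alone gives about 2.2. None of the 10 clock genes was among them. *Npas2* was at 8.49 CPM in control replicate 4, where the other controls had 4.21 to 5.44 CPM. *Nfil3* was at 43.8 CPM in Stat5Adipoq replicate 4, against 18.3 to 25.4 CPM. *Ciart* was at 5.41 CPM in control replicate 3, the library with muscle markers, against 2.00 to 2.78 CPM. *Stat5a* was at 20.7 CPM in Stat5Adipoq replicate 1, against 15.8 to 16.6 CPM.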

How the results depend on the processing

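The 10 clock genes gave 170 fold changes under 17 alternatives. Of these, 163 kept their direction, 7 reversed and none was called. The reversals came from leaving out single libraries, within ranges of -0.29 to 0.10 for *Per2*, -0.11 to 0.15 for *Nr1d1* and -0.16 to 0.02 for *Nr1d2*. *Per2* was at 0.10 without control replicate 3. *Nr1d1* was at -0.00081 without control replicate 1, -0.09 without control replicate 4 and -0.11 without Stat5Adipoq replicate 5. *Nr1d2* was at 0.01 without control replicate 3 and 0.02 without Stat5Adipoq replicates 1 or 3. *Ciart* (range -0.0012 to 0.51) reached -0.0012 without Stat5Adipoq replicate 5, and *Bhlhe40* (range -0.08 to 0.30) reached -0.01 and -0.08 without control replicate 1 or Stat5Adipoq replicate 4. The cause was not tested. Clock genes whose genotypes do not overlap numbered 0 to 1 with a library left out, the 1 being *Cry1* without control replicate 4 or Stat5Adipoq replicate 5. The overlap of *Cry1* rests on these libraries alone (15.7 and 14.4 CPM), so leaving out either removes it in any case. With all 10 libraries 4.39% of tested genes did not overlap, and the share with a library left out is not given here. Over all tested genes DESeq2 called 660, and leaving out a library gave 185 to 442 calls. Pairs of clock genes past the adjusted threshold numbered 4 when deviations from the genotype mean were not taken (*Arntl* and *Tef*, *Nr1d2* and *Dbp*, *Nr1d2* and *Tef*, *Dbp* and *Tef*, r = -0.84, 0.79, 0.91 and 0.89). With a library left out they numbered 0 to 1. The 1 was *Arntl* and *Nr1d2* (r = -0.92) without Stat5Adipoq replicate 2 or 5, and *Per3* and *Dbp* (r = 0.85) without control replicate 3.

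Replicate numbers did not pair the libraries. Deviations of same-numbered libraries correlated between -0.232 and 0.0885, and 2 of 10 libraries correlated best with their own number. A replicate block gave 273 calls over all tested genes in place of 368, 0 of the 10 clock genes and 1 of the 12 other loop genes, *Nfil3* (0.51, edgeR adjusted p = 0.036). The depth limits *Rorb* most, at 8.40 counts on average, and the filter of edgeR's filterByExpr leaves it out.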
